A study of Mus musculus with 12 samples.

Results

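The keratin-associated protein genes (Krtap in mouse) were taken as all genes in the deposited table of counts whose symbol starts with Krtap and whose counts summed to at least 10 over the 12 libraries. 57 Krtap genes were listed and 52 met this threshold, of 46078 genes in the table. They fall into 25 numbered families and lie on chromosome 11 (20 genes), chromosome 16 (23), chromosome 7 (5), chromosome 1 (2) and chromosome 10 (2). Just inside the threshold were Krtap5-1 with 11 counts and Krtap13 with 17 counts, and just outside it was Krtap6-3 with 8 counts. Krtap31-1 (4 counts), Krtap9-5 (1 count), Krtap31-2 and Krtap20-2 (0 counts each) were the other genes outside it.

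Keratin-associated proteins form the matrix between the keratin filaments of the hair shaft. In human and mouse hair they are made late in the differentiation of cortex and cuticle cells, after the hair keratins, and are cross-linked to them through cysteine. They are grouped by composition into high sulphur, ultra-high sulphur and high glycine-tyrosine proteins, and their genes sit in clusters of short, often single-exon copies. By family number, 18 of the 52 genes belong to the high sulphur class, 16 to the ultra-high sulphur class and 14 to the high glycine-tyrosine class, and 4 (Krtap28-10, Krtap28-13, Krtap29-1 and Krtap16-3) were assigned to none. Krtap16-3 was left out of the class of its number by hand, because it lies among high glycine-tyrosine genes on chromosome 16.

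RNA was from skin epidermis of newborn mice, 3 animals in each of 4 genotypes. Every mouse had K14-Cre, in which the keratin 14 promoter drives Cre recombinase in basal keratinocytes, and so in the cells that descend from them. The groups were K14-Cre with Llgl1/2 flox/flox and Trp53 +/flox (Llgl cKO Trp53 het), K14-Cre with Llgl1/2 flox/flox (Llgl cKO), K14-Cre with Trp53 +/flox (Trp53 het) and K14-Cre alone (control). Llgl1 and Llgl2 encode lethal giant larvae proteins of epithelial polarity, and Trp53 encodes the p53 tumour suppressor. Levels are CPM, counts scaled to a common library size, given in the order of replicates 1, 2 and 3, and cover all cells of the tissue: fewer hair shaft cells and less RNA per cell cannot be told apart in bulk RNA.

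Column totals ran from 6738720 to 14509507 counts. Llgl2 was at 6.12, 12.4 and 7.03 CPM in Llgl cKO Trp53 het mice, 7.63, 7.73 and 9.69 in Llgl cKO mice, 109, 97.1 and 66.5 in Trp53 het mice, and 109.9, 84.9 and 65.4 in controls, and was lower in all 6 libraries with the Llgl cKO genotype than in the other 6. Llgl1 was at 187, 248 and 211 CPM in Llgl cKO Trp53 het mice, 280.1, 218 and 269 in Llgl cKO mice, 140.3, 137 and 122 in Trp53 het mice, and 173, 127 and 115 in controls, higher in those 6 libraries than in the other 6. The deleted exons are not given in the sources used here, so Llgl1 checks no label. Trp53 was at 98.3, 67.8 and 65.9 CPM in Llgl cKO Trp53 het mice, 120.5, 122 and 112 in Llgl cKO mice, 61.8, 60.9 and 115 in Trp53 het mice, and 130.5, 109 and 123 in controls. The library labelled Trp53 het 3 is therefore in the control range and goes against its label. Control 3 and the library labelled Trp53 het 3 also stood apart from their own groups in the Krtap genes, and counts of calls are given with and without that pair. The pair was chosen after its low Krtap levels were seen. Leaving it out raises the Krtap means of the control and Trp53 het groups, so counts without it are no independent support for a fall. Basal keratinocyte genes (Krt5, Krt14, Krt15, Itga6, Trp63) summed to between 13536 and 19420 CPM over the 12 libraries, so the defining markers of the labelled tissue were present throughout. Pairs of libraries within a group all differed by more than sampling noise (chi-square per degree of freedom 13.8 to 82.8).

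Stretches upstream of 5 genes are shown for description. Krtap3-2 and Krtap17-1 are genes whose levels parted from the other members. Their chromosome 11 neighbours Krtap3-1, Krtap3-3 and Krtap16-1 are genes whose levels did not. Whether these sequences bear on the levels was not tested. Each is the 150 bases before the RefSeq start in GRCm38.p6, 5′ to 3′ on the minus strand of the chromosome, with the letters TATAAA in capitals.
Krtap3-2: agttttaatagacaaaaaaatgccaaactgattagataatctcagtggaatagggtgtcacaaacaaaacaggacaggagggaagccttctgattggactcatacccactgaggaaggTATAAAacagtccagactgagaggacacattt
Krtap3-1: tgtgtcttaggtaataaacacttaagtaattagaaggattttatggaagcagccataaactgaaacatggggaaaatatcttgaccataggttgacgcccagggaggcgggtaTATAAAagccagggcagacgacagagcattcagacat
Krtap3-3: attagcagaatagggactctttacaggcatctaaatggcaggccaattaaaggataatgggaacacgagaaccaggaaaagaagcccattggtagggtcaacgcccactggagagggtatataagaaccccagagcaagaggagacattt
Krtap17-1: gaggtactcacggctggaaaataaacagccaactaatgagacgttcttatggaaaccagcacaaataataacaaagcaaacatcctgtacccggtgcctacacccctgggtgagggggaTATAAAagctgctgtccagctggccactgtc
Krtap16-1: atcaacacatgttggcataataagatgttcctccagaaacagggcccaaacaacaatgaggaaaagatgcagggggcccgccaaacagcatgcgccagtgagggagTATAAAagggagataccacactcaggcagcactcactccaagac
These stretches lie at chr11:99556854-99557003, chr11:99566631-99566780, chr11:99550864-99551013, chr11:99993995-99994144 and chr11:99986594-99986743. TATAAA, the core of the TATA box bound by the TATA-binding protein, starts 32 bases before the start of Krtap3-2, 37 before Krtap3-1, 31 before Krtap17-1 and 44 before Krtap16-1. It is not in the Krtap3-3 stretch in these letters. The 250 upstream bases of Krtap3-2 were 64.8% identical to those of Krtap3-1 and 66.0% to those of Krtap3-3, against 65.6% between Krtap3-3 and Krtap3-1.

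RefSeq promoter entries matched 46 of the 52 genes, and 36 of these 46 (78.3%) held TATAAA on either strand in the 250 bases upstream. Among all 32851 mouse promoters of that RefSeq set the share was 12.4%. On the gene's strand, with its first base between positions -40 and -20, TATAAA was found in 26 of the 46 Krtap promoters (56.5%) and in 2.0% of all promoters. The consensus for HOXC13, a homeodomain factor of the hair matrix, read as TTAATN or TTTATN followed by 2 purines on either strand, was found in 25 of 46 (54.3%) against 17.2% of all. These motifs overlap: TATAAA preceded by 2 pyrimidines on one strand is also a match to the HOXC13 consensus on the other. A match describes the letters only.

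**Figure D1:**
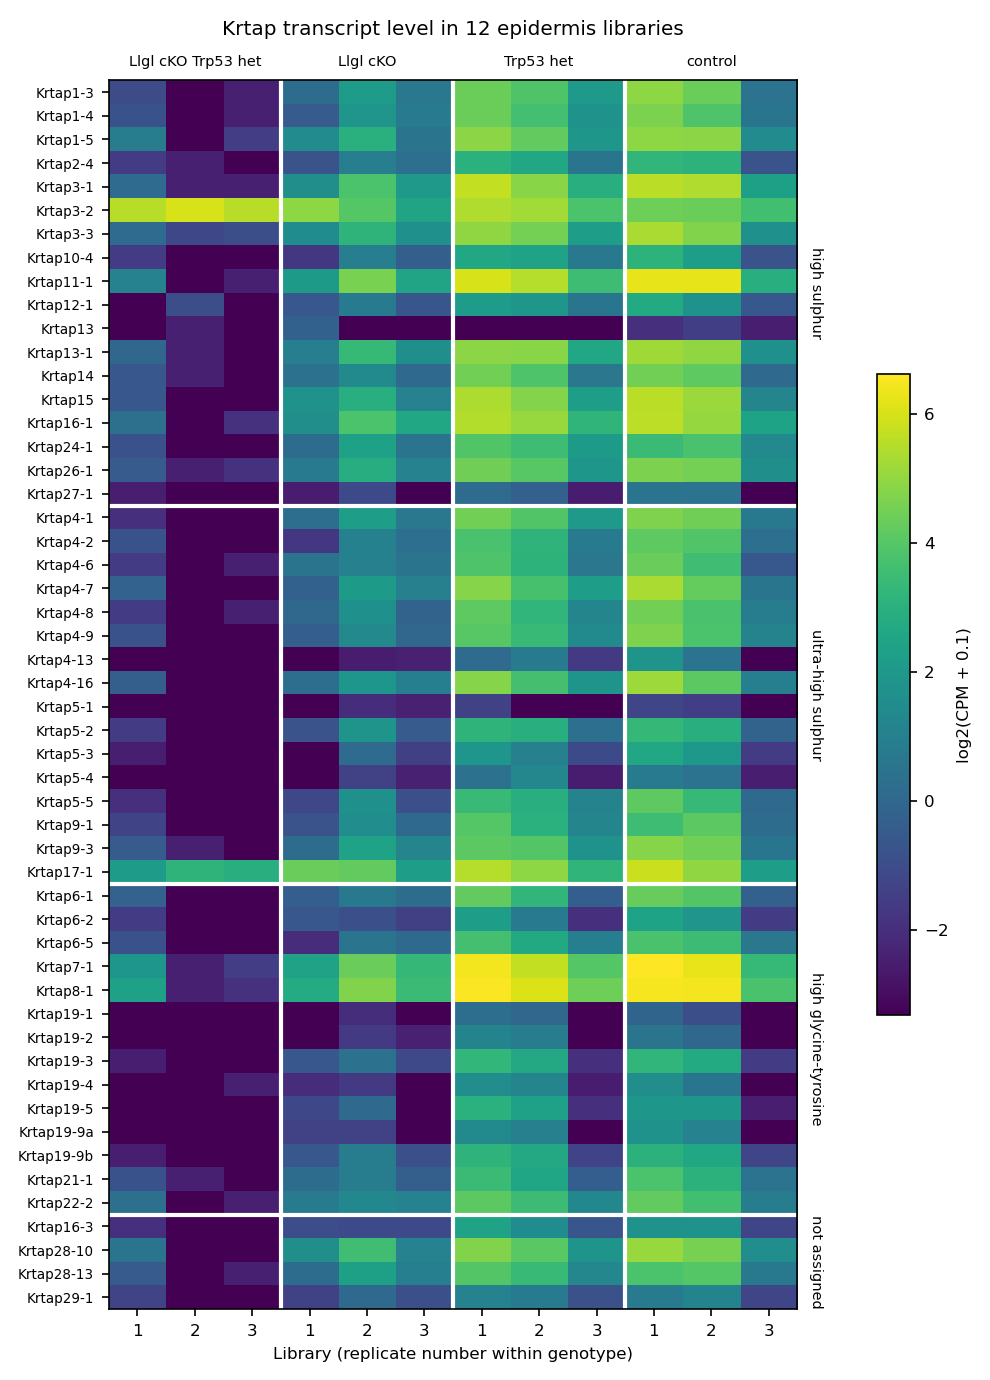
Level of the 52 Krtap genes in each of 12 epidermis libraries, as log2(CPM + 0.1), with libraries in columns by genotype and replicate number and genes in rows by class. Llgl cKO Trp53 het replicates 2 and 3 are dark for nearly all genes except Krtap3-2 and Krtap17-1, and control 3 and the library labelled Trp53 het 3 are lower than the other libraries of their groups.

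Krtap transcripts were lowest in the epidermis of Llgl cKO Trp53 het mice and low in that of Llgl cKO mice. Summed over the 52 genes they came to 81.0, 75.3 and 56.9 CPM in Llgl cKO Trp53 het mice, 109.9, 264 and 90.3 CPM in Llgl cKO mice, 1032, 691 and 171 CPM in Trp53 het mice, and 1159, 896 and 106 CPM in controls. The double mutant sums were below every other library, and the Llgl cKO sums overlapped those of the low library of the control group. Without Krtap3-2 and Krtap17-1, described below for their own pattern, the other 50 genes summed to 30.4, 1.62 and 2.18 CPM in Llgl cKO Trp53 het mice, 59.2, 230 and 80.1 CPM in Llgl cKO mice, 944, 623 and 148 CPM in Trp53 het mice, and 1082, 844 and 89.1 CPM in controls. In raw reads those 50 genes held 387, 19 and 26 counts in the double mutants, against 6615, 9925 and 1105 in controls.

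The number of Krtap genes with no count at all was 10, 38 and 35 in Llgl cKO Trp53 het mice, 6, 1 and 6 in Llgl cKO mice, 1, 2 and 5 in Trp53 het mice, and 0, 0 and 7 in controls. Replicate 1 of the double mutants therefore held reads of many members that had none in replicates 2 and 3. A count of 0 in these libraries says only that a transcript was not detectable at this depth.

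Differences were tested with edgeR's quasi-likelihood F test with all 12 libraries in 1 fit, over 14582 genes, and called below an adjusted p (Benjamini-Hochberg) of 0.05. 49 Krtap genes passed the low-count filter. Krtap13, Krtap19-1 and Krtap5-1 did not. Since a gene passes if its counts suffice in any 1 group, counts over the 49 describe the genes tested, not all members.

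Averaged over both Trp53 genotypes, 36 of the 49 tested Krtap genes fell with the Llgl cKO genotype and 0 rose, against 2.15% of all genes tested that fell. The median log2 difference of the 49 was -4.17, and that of all genes tested was -0.00258. Of the 49, 48 had an unadjusted p under 0.05 (18.2% of all genes did). 48 of the 49 differences were below 0, the exception being Krtap3-2. The count leans on single libraries: it was 0 without Llgl cKO Trp53 het 2, 1 without Llgl cKO Trp53 het 3, 2 without Llgl cKO 1, 4 without control 2, 10 without Llgl cKO 3, 15 and 17 without Trp53 het 2 and 1, and 19 without control 1. It was 46 without control 3 or without the library labelled Trp53 het 3, and 49 of 50 tested without both, an alternative chosen after the data were seen in which 2334 of all 14761 genes tested were called in either direction, against 485 of 14582 with all libraries. DESeq2 called 45 Krtap genes and 1034 of 14582 genes. With no low-count filter 1 Krtap gene, Krtap16-3, was called, and 367 of 25889 genes. Only Krtap6-5 had no overlap between the 6 Llgl cKO and the 6 other libraries, where 1.21% of all genes were lower without overlap.

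Each Trp53 genotype was also compared on its own, and the comparisons against controls share the 3 control libraries. In Llgl cKO mice against controls 0 of 49 Krtap genes were called (0.137% of all genes fell and 0.0892% rose), with 33 at an unadjusted p under 0.05 (6.31% of all genes) and 0 called by DESeq2. The median log2 difference was -2.62 and all 49 were below 0. Without both control 3 and the library labelled Trp53 het 3 the count was 29, where 413 of 14761 genes were called, against 33 of 14582 with all libraries. That pair was chosen after its low Krtap levels were seen. In Llgl cKO Trp53 het mice against controls 10 fell and 0 rose, beside 0.905% of all genes that fell and 0.343% that rose. The median log2 difference was -5.98, or -5.64 with the 16 genes at or under 3 double mutant counts reset. Of these, genes at 0 counts were set to the bound from a floor of 3 counts. The others were set to the ratio of their summed counts, scaled to library size. An unadjusted p under 0.05 was found for 49 (13.9% of all genes), of which 48 were lower and Krtap3-2 was higher. DESeq2 called 43 Krtap genes and 644 of 14582 genes. With no low-count filter 0 Krtap genes were called, and 0 with only the double mutant and control libraries in the fit. The 10 were Krtap1-3, Krtap3-1, Krtap3-3, Krtap4-1, Krtap4-8, Krtap4-9, Krtap15, Krtap16-1, Krtap24-1 and Krtap26-1.

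Against Trp53 het mice, the other group with that Trp53 genotype, 6 Krtap genes fell in Llgl cKO Trp53 het mice and 0 rose. Of all genes 0.919% fell and 0.439% rose. The median log2 difference was -5.75, or -5.55 with genes of few double mutant reads reset as above. An unadjusted p under 0.05 was found for 48 Krtap genes (15.4% of all genes). DESeq2 called 45 Krtap genes and 722 of 14582 genes. With no low-count filter 0 Krtap genes were called. These 6 were Krtap3-1, Krtap4-1, Krtap4-8, Krtap16-1, Krtap24-1 and Krtap26-1, and both comparisons share the double mutant libraries. Against controls the count of calls was 0 without control 1 or 2, Llgl cKO Trp53 het 2 or 3, Llgl cKO 3 or Trp53 het 2, 2 without Llgl cKO Trp53 het 1 (0 of the 10 among them), 4 without Llgl cKO 1, 6 without Trp53 het 1, 27 without the library labelled Trp53 het 3 and 40 without control 3. Against Trp53 het mice it was 0 without control 1 or 2, Llgl cKO Trp53 het 2 or 3, Llgl cKO 3 or Trp53 het 1 or 2, 2 without Llgl cKO Trp53 het 1 (0 of the 6 among them), 3 without Llgl cKO 1, 32 without the library labelled Trp53 het 3 and 35 without control 3. With both low libraries left out, a choice made after their Krtap levels were seen, each count was 49. There 1139 of 14761 genes were called against controls and 1088 against Trp53 het mice, and with all libraries 182 and 198 of 14582. All 3 double mutant libraries were below all 3 controls in 41 of the 49 genes (9.2% of all genes were lower without overlap), and below all 3 Trp53 het libraries in 42 (10.7%).

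Adding the Trp53 change to the Llgl cKO genotype gave 0 calls among the Krtap genes (0% of all genes were called), and 1 call by DESeq2. An unadjusted p under 0.05 was found for 25 Krtap genes (5.12% of all genes). The median log2 difference was -3.31, or -3.08 with genes of few double mutant reads reset as above. The 3 double mutants lay below the 3 Llgl cKO libraries in 32 of 49 genes, against 5.13% of all genes. Whether the Llgl difference itself differed between the Trp53 genotypes was tested as an interaction, which called 0 Krtap genes (0% of all genes), 7 at an unadjusted p under 0.05 (2.94% of all genes), and 0 with DESeq2. Its median log2 value over the 49 was -3.03. In Trp53 het mice against controls 0 Krtap genes were called and 0 had an unadjusted p under 0.05 (0.432% of all genes did), DESeq2 called 0, and the median log2 difference was -0.22. The sign of that median depended on single libraries. It was -0.80 without Trp53 het 1, 0.36 without control 1 and 0.28 without the library labelled Trp53 het 3. The Trp53 het libraries lay below all controls in 0 of the 49 and above them in 0, against 1.52% and 1.5% of all genes. The smallest p values there belonged to Krtap3-2 (log2 difference 0.79, SE 0.54, adjusted p = 1) and Krtap5-3 (-0.77, SE 1.04, adjusted p = 1).

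**Figure D2:**
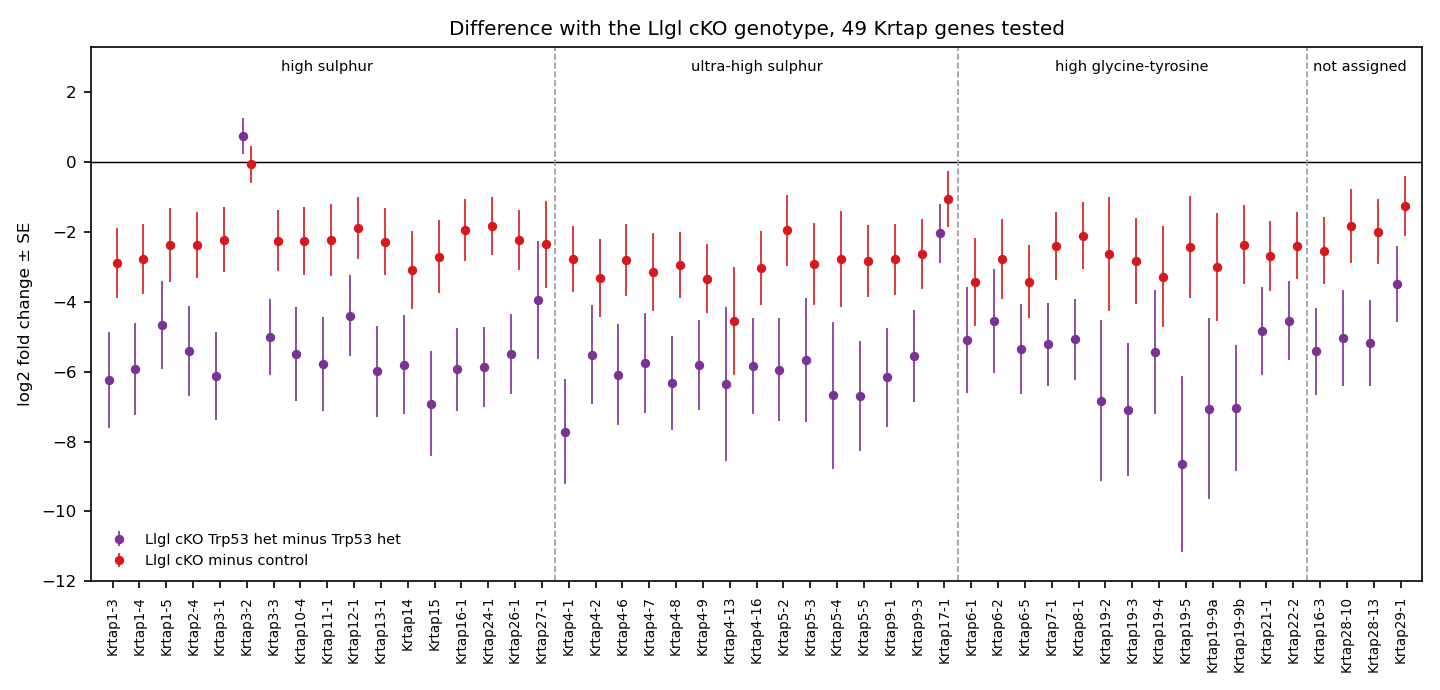
Log2 fold change with its standard error (y axis) for the 49 Krtap genes tested (x axis, by class), in Llgl cKO Trp53 het minus Trp53 het and in Llgl cKO minus control. Nearly all points lie below 0, with medians of -5.75 and -2.62, Krtap17-1 is nearer to 0, and Krtap3-2 is at 0.75 and -0.06.

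The high sulphur proteins are cysteine-rich matrix proteins of cortex and cuticle. 15 of the 17 tested fell in the average Llgl comparison, with a median log2 difference of -3.89. Krtap11-1 was at 2.04, 0 and 0.0837 CPM in Llgl cKO Trp53 het mice, 4.12, 24.6 and 5.46 in Llgl cKO mice, 65.4, 45.9 and 11.6 in Trp53 het mice, and 76.5, 76.7 and 7.496 in controls. Every double mutant library was below every library of the other groups. Its average log2 difference was -4.001, SE 0.85, adjusted p = 0.0286. Krtap16-1, next to Krtap17-1 on chromosome 11, was at 1.18, 0 and 0.167 CPM in Llgl cKO Trp53 het mice, 2.95, 13.8 and 6.17 in Llgl cKO mice, 44.3, 33.6 and 8.96 in Trp53 het mice, and 49.9, 33.4 and 5.32 in controls. It fell in the double mutants against Trp53 het mice by 5.93 on the log2 scale (SE 1.18, adjusted p = 0.0438) and on average by 3.93 (SE 0.74, adjusted p = 0.0193). The 3 Llgl cKO libraries reached from 2.95 to 13.8 CPM and overlapped control 3.

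KAP1 genes encode proteins of the hair cortex. Krtap1-5 was at 1.73, 0 and 0.251 CPM in Llgl cKO Trp53 het mice, 2.68, 7.95 and 1.32 in Llgl cKO mice, 29.8, 18.8 and 3.76 in Trp53 het mice, and 30.7, 29.3 and 2.66 in controls. Krtap1-3, of the same family, was at 0.392, 0 and 0.0837 CPM in Llgl cKO Trp53 het mice, 1.03, 4.45 and 1.497 in Llgl cKO mice, 20.96, 14.7 and 4.07 in Trp53 het mice, and 30.6, 20.8 and 1.29 in controls. In both genes control 3 was within the Llgl cKO range, while controls 1 and 2 were above it. Average log2 differences were -3.51, SE 0.83, adjusted p = 0.0448 for Krtap1-5 and -4.56, SE 0.85, adjusted p = 0.0183 for Krtap1-3. Krtap2-4, whose 50-base words are shared by more than 20% with other genes so that its reads may be split among copies, was at 0.235, 0.0854 and 0 CPM in Llgl cKO Trp53 het mice, 0.481, 1.82 and 1.14 in Llgl cKO mice, 8.12, 5.96 and 1.35 in Trp53 het mice, and 9.32, 8.503 and 0.484 in controls. It fell on average by 3.89 on the log2 scale (SE 0.80, adjusted p = 0.026).

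The KAP13, KAP14 and KAP15 genes stand on chromosome 16. Krtap13-1 was at 0.863, 0.0854 and 0 CPM in Llgl cKO Trp53 het mice, 1.79, 9.91 and 2.99 in Llgl cKO mice, 29.9, 28.8 and 6.098 in Trp53 het mice, and 37.1, 31.6 and 3.06 in controls. Krtap14 was at 0.549, 0.0854 and 0 CPM in Llgl cKO Trp53 het mice, 1.24, 2.55 and 0.969 in Llgl cKO mice, 22.3, 14.5 and 1.43 in Trp53 het mice, and 22.6, 17.9 and 0.967 in controls. Krtap15 was at 0.549, 0 and 0 CPM in Llgl cKO Trp53 het mice, 3.298, 7.58 and 2.03 in Llgl cKO mice, 41.6, 27.04 and 4.52 in Trp53 het mice, and 48.2, 35.2 and 2.18 in controls. In all 3 genes the double mutants were below all other libraries. Krtap14 and Krtap15 overlap on opposite strands as whole gene spans, and overlap of their exons was not checked. The strand setting of the counting is not given in the sources used here, so how well their reads were kept apart is uncertain. Their average log2 differences were -4.13, SE 0.81, adjusted p = 0.0222 for Krtap13-1, -4.44, SE 0.91, adjusted p = 0.026 for Krtap14 and -4.81, SE 0.92, adjusted p = 0.0201 for Krtap15. Krtap13 itself was nearly silent: of its 17 counts 11 were in Llgl cKO 1.

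Krtap24-1 was at 0.471, 0 and 0 CPM in Llgl cKO Trp53 het mice, 1.03, 5.103 and 1.32 in Llgl cKO mice, 14.96, 11.5 and 4.22 in Trp53 het mice, and 10.96, 13.3 and 2.499 in controls. Krtap26-1 was at 0.628, 0.0854 and 0.167 CPM in Llgl cKO Trp53 het mice, 1.58, 7.14 and 2.03 in Llgl cKO mice, 22.1, 16.3 and 3.76 in Trp53 het mice, and 25.02, 23.04 and 2.98 in controls. In these genes all 3 double mutant libraries held under 1 CPM. Both fell in the double mutants against Trp53 het mice, with log2 differences of -5.87 for Krtap24-1 (SE 1.14, adjusted p = 0.0399) and -5.49 for Krtap26-1 (SE 1.15, adjusted p = 0.0476). Krtap27-1 was at 0.0785, 0 and 0 CPM in Llgl cKO Trp53 het mice, 0.0687, 0.364 and 0 in Llgl cKO mice, 1.02, 0.727 and 0.0753 in Trp53 het mice, and 1.31, 1.28 and 0 in controls. At so few reads it was not called (average log2 difference -3.15, SE 1.05, adjusted p = 0.135). Its double mutant count was 1, against 23 in controls, a ratio of controls to double mutants of 27.6 with a 95% exact interval of 4.49 to 1139 that covers counting error only.

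KAP10 and KAP12 are cuticle families in human hair, and in mouse Krtap10-4 and Krtap12-1 lie within Tspear on chromosome 10. Krtap10-4 was at 0.235, 0 and 0 CPM in Llgl cKO Trp53 het mice, 0.206, 1.82 and 0.705 in Llgl cKO mice, 5.91, 5.23 and 1.51 in Trp53 het mice, and 8.503, 4.68 and 0.484 in controls. Krtap12-1 was at 0, 0.427 and 0 CPM in Llgl cKO Trp53 het mice, 0.5497, 1.604 and 0.528 in Llgl cKO mice, 4.34, 3.78 and 1.35 in Trp53 het mice, and 6.704, 3.23 and 0.564 in controls. Krtap12-1 had its 5 double mutant counts in replicate 2 alone. Both fell on average, with log2 differences of -3.87, SE 0.84, adjusted p = 0.0312 for Krtap10-4 and -3.14, SE 0.73, adjusted p = 0.0421 for Krtap12-1.

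The ultra-high sulphur proteins are the most cysteine-rich. 11 of the 15 tested fell on average, with a median log2 difference of -4.45. Of the 8 KAP4 genes, on chromosome 11, 7 fell on average and Krtap4-13 (36 counts in controls, 0 in the double mutants, at least 14.4-fold lower there by a floor of 3 counts over the group) was not called. Krtap4-7 was at 0.785, 0 and 0 CPM in Llgl cKO Trp53 het mice, 0.756, 4.15 and 1.94 in Llgl cKO mice, 28.1, 13.1 and 4.52 in Trp53 het mice, and 40.7, 19.5 and 1.37 in controls. Krtap4-1 was at 0.157, 0 and 0 CPM in Llgl cKO Trp53 het mice, 1.099, 4.59 and 1.497 in Llgl cKO mice, 22.4, 15.1 and 3.99 in Trp53 het mice, and 26.2, 21.9 and 1.53 in controls. Krtap4-1 had 2 reads in all double mutants, against 436 in controls and 400 in Trp53 het mice, so that the ratio of controls to double mutants was 262 with a 95% exact interval of 72.1 to 2170. It had the smallest adjusted p among the members in the average comparison (log2 difference -5.24, SE 0.897, adjusted p = 0.0147), and in Llgl cKO mice against controls its log2 difference of -2.76 was not called (SE 0.95, adjusted p = 0.613).

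Krtap4-8 was at 0.235, 0 and 0.0837 CPM in Llgl cKO Trp53 het mice, 0.893, 3.06 and 0.793 in Llgl cKO mice, 17.6, 9.16 and 2.18 in Trp53 het mice, and 22.6, 13.3 and 1.77 in controls. Krtap4-9 was at 0.471, 0 and 0 CPM in Llgl cKO Trp53 het mice, 0.687, 2.48 and 0.881 in Llgl cKO mice, 16.2, 10.5 and 2.63 in Trp53 het mice, and 26, 13.9 and 2.096 in controls. Replicate 1 alone of the double mutants held Krtap4-9 reads. The average log2 differences were -4.63, SE 0.83, adjusted p = 0.0156 for Krtap4-8 and -4.57, SE 0.81, adjusted p = 0.0154 for Krtap4-9. Krtap4-8 and other members share 50-base words with their neighbours, so single values in this family are uncertain, and the family sum is given beside them: 3.06, 0 and 0.17 CPM in Llgl cKO Trp53 het mice, 6.05, 21.9 and 9.51 CPM in Llgl cKO mice, 142, 79.4 and 20.1 CPM in Trp53 het mice, and 192, 114 and 10.3 CPM in controls.

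KAP5 genes, on chromosome 7, encode proteins of the hair cuticle. Krtap5-5 was at 0.157, 0 and 0 CPM in Llgl cKO Trp53 het mice, 0.344, 3.06 and 0.4404 in Llgl cKO mice, 10.6, 7.703 and 2.108 in Trp53 het mice, and 17.5, 9.95 and 0.967 in controls. Krtap5-3 was at 0.0785, 0 and 0 CPM in Llgl cKO Trp53 het mice, 0, 1.02 and 0.264 in Llgl cKO mice, 3.601, 1.89 and 0.376 in Trp53 het mice, and 6.21, 3.83 and 0.242 in controls. In the family all 4 tested members had log2 differences below 0 and 2 were called on average. Krtap5-5 fell on average by 4.76 on the log2 scale (SE 0.95, adjusted p = 0.0235). Krtap5-4 had 0 counts in double mutants and 26 in controls, at least 10.4-fold lower by the floor of 3 counts. Krtap9-3, of a cortex family in human hair, was at 0.628, 0.0854 and 0 CPM in Llgl cKO Trp53 het mice, 1.03, 5.18 and 2.202 in Llgl cKO mice, 17.4, 15.4 and 3.39 in Trp53 het mice, and 28.1, 22.9 and 1.37 in controls. It fell on average by 4.08 on the log2 scale (SE 0.84, adjusted p = 0.026), and Krtap9-1 was also called.

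The high glycine-tyrosine proteins are small proteins of the cortex, rich in glycine and tyrosine. 8 of the 13 tested fell on average, with a median log2 difference of -4.36. Krtap8-1 was at 5.02, 0.0854 and 0.167 CPM in Llgl cKO Trp53 het mice, 6.94, 26.5 and 10.8 in Llgl cKO mice, 93.9, 67.6 and 21.2 in Trp53 het mice, and 89.8, 88 and 13.7 in controls. Krtap7-1 was at 3.69, 0.0854 and 0.251 CPM in Llgl cKO Trp53 het mice, 5.15, 20.3 and 9.69 in Llgl cKO mice, 86.3, 52.5 and 15.96 in Trp53 het mice, and 98.4, 78.2 and 10.1 in controls. These had the highest mean levels per length in controls, 111 CPM per kb for Krtap8-1 and 100.2 CPM per kb for Krtap7-1, and in double mutants their means were 3.06 and 2.16 CPM per kb. Replicate 1 of the double mutants held most of that. The average log2 differences were -3.59, SE 0.75, adjusted p = 0.0277 for Krtap8-1 and -3.81, SE 0.76, adjusted p = 0.024 for Krtap7-1.

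Krtap6-1, in a family that shares sequence among its copies, was at 0.785, 0 and 0 CPM in Llgl cKO Trp53 het mice, 0.687, 1.53 and 1.06 in Llgl cKO mice, 18.9, 9.302 and 0.678 in Trp53 het mice, and 19.8, 15.6 and 0.725 in controls. Krtap6-5 was at 0.471, 0 and 0 CPM in Llgl cKO Trp53 het mice, 0.137, 1.31 and 0.969 in Llgl cKO mice, 12.9, 6.54 and 1.88 in Trp53 het mice, and 13.6, 11.1 and 1.45 in controls. Krtap6-5 was the only Krtap gene tested whose Llgl cKO libraries all lay below all control libraries, which 5.31% of all genes did. Its log2 difference there was -3.42, SE 1.04, adjusted p = 0.504, and -4.38, SE 0.83, adjusted p = 0.0194 on average. Krtap21-1 was at 0.471, 0.0854 and 0 CPM in Llgl cKO Trp53 het mice, 1.03, 1.75 and 0.705 in Llgl cKO mice, 10.9, 5.81 and 0.678 in Trp53 het mice, and 13.9, 8.25 and 1.29 in controls. Krtap22-2 was at 1.18, 0 and 0.0837 CPM in Llgl cKO Trp53 het mice, 1.65, 2.41 and 2.03 in Llgl cKO mice, 17.4, 11.2 and 2.41 in Trp53 het mice, and 18.6, 12.2 and 1.69 in controls. Both fell on average, with log2 differences of -3.77, SE 0.81, adjusted p = 0.0302 for Krtap21-1 and -3.46, SE 0.75, adjusted p = 0.0315 for Krtap22-2.

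KAP19 is the high glycine-tyrosine family with the most members here. Krtap19-3 was at 0.0785, 0 and 0 CPM in Llgl cKO Trp53 het mice, 0.5497, 1.24 and 0.352 in Llgl cKO mice, 9.42, 6.25 and 0.151 in Trp53 het mice, and 9.16, 6.63 and 0.242 in controls. Its double mutants held 1 read in all, against 137 in controls, a ratio of controls to double mutants of 165 with a 95% exact interval of 29.1 to 6550. Summed over 7 members, KAP19 was at 0.16, 0 and 0.08 CPM in Llgl cKO Trp53 het mice, 1.86, 4.81 and 0.88 CPM in Llgl cKO mice, 35.0, 24.3 and 0.68 CPM in Trp53 het mice, and 29.6, 21.3 and 0.64 CPM in controls. The third library of the Trp53 het and of the control group thus held far fewer KAP19 reads than the other 2, where for Krtap8-1 the third was at 21.2 CPM in Trp53 het mice and at 13.7 CPM in controls. 2 of the 6 tested members were called on average. Krtap19-5 had 0 counts in double mutants and 68 in controls, at least 27.2-fold lower by the floor of 3 counts. Krtap19-9a is annotated as a processed pseudogene.

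Of the 4 genes with no class, Krtap28-10 was at 1.33, 0 and 0 CPM in Llgl cKO Trp53 het mice, 2.95, 11.9 and 2.03 in Llgl cKO mice, 26.5, 16.6 and 3.46 in Trp53 het mice, and 34.3, 23.6 and 2.82 in controls. Krtap29-1 was at 0.314, 0 and 0 CPM in Llgl cKO Trp53 het mice, 0.275, 0.948 and 0.4404 in Llgl cKO mice, 2.03, 1.599 and 0.452 in Trp53 het mice, and 1.64, 2.13 and 0.322 in controls. Neither passed the test on average, with log2 differences of -3.43, SE 0.87, adjusted p = 0.0586 for Krtap28-10 and -2.36, SE 0.69, adjusted p = 0.0941 for Krtap29-1. Krtap28-13 and Krtap16-3 were called. Members on chromosome 11, which also carries Llgl1, Llgl2 and Trp53, had a median average log2 difference of -4.38 (16 of 20 called), and those on chromosome 16 had one of -4.13 (15 of 21 called).

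Krtap3-2, a high sulphur gene, was the member with a higher level in the double mutants. It was at 46.4, 64.9 and 47.1 CPM in Llgl cKO Trp53 het mice, 30.3, 15.8 and 5.55 in Llgl cKO mice, 42.8, 37.5 and 14 in Trp53 het mice, and 21.4, 20.8 and 12.3 in controls. The double mutant libraries were above all 9 others. The log2 difference was 1.55 against controls (SE 0.54, adjusted p = 0.225), 0.75 against Trp53 het mice (SE 0.52, adjusted p = 0.552) and 1.61 against Llgl cKO mice (SE 0.53, adjusted p = 0.755), and none passed this test. With the replicate number as a block, Krtap3-2 was called as higher against controls (log2 difference 1.63, adjusted p = 0.0458). The numbers were not shown to pair these groups. Deviations of same-numbered double mutant and control libraries from their group means had correlations of -0.126, -0.124 and 0.181 over all genes tested. No other tested Krtap gene was higher in the double mutants than in all 3 controls, Llgl cKO or Trp53 het libraries, where 7.87% of all genes were so against controls, 5.84% against Llgl cKO and 9.75% against Trp53 het.

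Krtap3-2 lies between Krtap3-3 and Krtap3-1 on chromosome 11, at positions 99555823 to 99556853 on the minus strand of GRCm38. Krtap3-1 was at 1.02, 0.0854 and 0.0837 CPM in Llgl cKO Trp53 het mice, 2.95, 13.7 and 3.96 in Llgl cKO mice, 51.9, 28.5 and 7.38 in Trp53 het mice, and 48.6, 43.3 and 4.92 in controls. Krtap3-3 was at 1.02, 0.342 and 0.419 CPM in Llgl cKO Trp53 het mice, 2.75, 8.82 and 3.08 in Llgl cKO mice, 31.4, 23.1 and 4.59 in Trp53 het mice, and 40.7, 26.8 and 3.06 in controls. Both neighbours were below every library of the other groups in the double mutants, and both fell against controls, with log2 differences of -6.26 for Krtap3-1 (SE 1.26, adjusted p = 0.0447) and -5.25 for Krtap3-3 (SE 1.10, adjusted p = 0.0477). Of the 50-base words of Krtap3-2, 28.9% occur in another gene, and 41.3% of those of Krtap3-3 and 8.83% of those of Krtap3-1 do. The counting of reads that match several genes is not given in the sources used here, so the few Krtap3-3 counts of double mutants are uncertain.

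Krtap3-2 made up 57.3%, 86.2% and 82.8% of Krtap counts in Llgl cKO Trp53 het mice, 27.6%, 5.99% and 6.15% in Llgl cKO mice, 4.15%, 5.43% and 8.20% in Trp53 het mice, and 1.85%, 2.33% and 11.6% in controls. Per length, its mean level in double mutants was 51.2 CPM per kb, above the 9.05 CPM per kb of Krtap17-1 and the 3.06 CPM per kb of Krtap8-1. In controls its 17.6 CPM per kb stood below 40.2 for Krtap17-1 and 111 for Krtap8-1.

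Krtap17-1, the single KAP17 gene and of the ultra-high sulphur class, was at 4.24, 8.796 and 7.62 CPM in Llgl cKO Trp53 het mice, 20.5, 18.5 and 4.58 in Llgl cKO mice, 45.6, 30.4 and 8.96 in Trp53 het mice, and 56.2, 30.9 and 4.67 in controls. The double mutants overlapped control 3 and Llgl cKO 3 but lay below all Trp53 het libraries. The average log2 difference was -1.54, SE 0.58, adjusted p = 0.188, and that in double mutants against Trp53 het mice was -2.04, SE 0.84, adjusted p = 0.28. No 50-base word of Krtap17-1 or of its neighbour Krtap16-1 occurs in another gene. Krtap17-1 was at 4.24 to 8.80 CPM in the double mutants, where Krtap16-1 had 0 to 1.18 CPM.

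**Figure D3:**
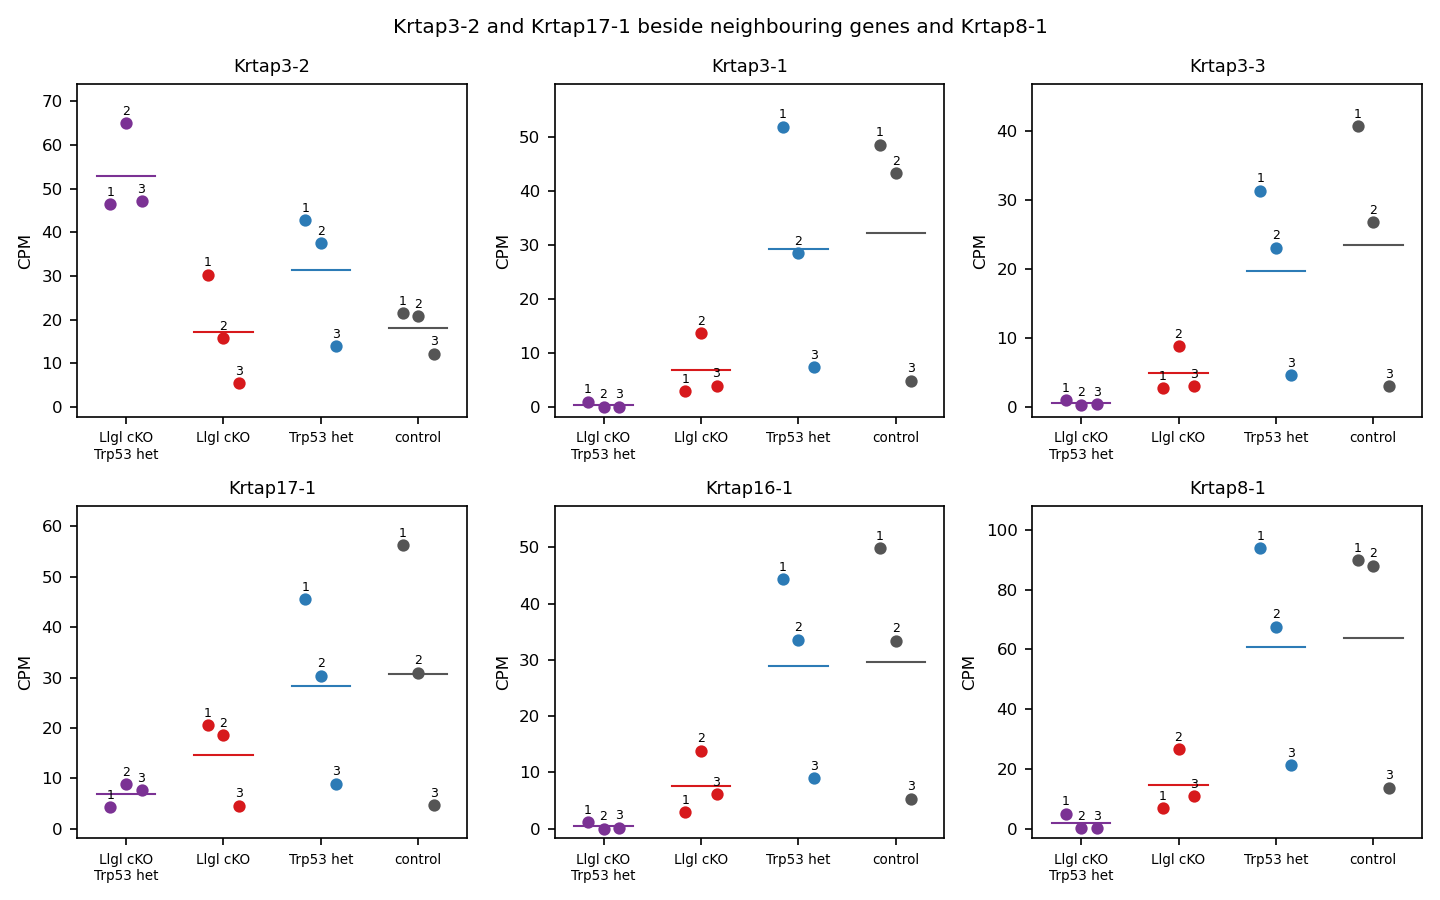
CPM (y axis, linear) in each library by genotype, with replicate numbers and the group mean as a bar, for Krtap3-2, its neighbours Krtap3-1 and Krtap3-3, Krtap17-1, its neighbour Krtap16-1, and Krtap8-1. Krtap3-2 is at 46.4 to 64.9 CPM in double mutants, where Krtap3-1 is at or under 1.02 CPM.

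Krtap transcripts were also set against those of the keratins they bind. The ratio of Krtap CPM (without Krtap3-2) to the CPM of 14 hair keratins was 0.529, 0.297 and 0.283 in Llgl cKO Trp53 het mice, 0.601, 0.678 and 0.803 in Llgl cKO mice, 1.80, 1.53 and 0.699 in Trp53 het mice, and 1.83, 1.53 and 0.536 in controls. The double mutants were below all others, replicate 1 only narrowly (0.529 against 0.536 in control 3). Krtap17-1 is kept in this ratio, and was 8.80 of 10.4 Krtap CPM in double mutant 2 and 7.62 of 9.80 in double mutant 3. Control 3 and the library labelled Trp53 het 3 were in or near the Llgl cKO range. Type I hair keratins (Krt31 to Krt36, Krt39 and Krt40) fell on average in 7 of 9 genes (median log2 difference -3.33), type II hair keratins in 4 of 5 (-2.77), and inner root sheath and companion layer genes in 7 of 10 (-2.74). Among other hair shaft proteins 7 of 10 fell (-2.26).

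The hair matrix holds the dividing precursors of the shaft. Of 12 hair matrix regulators 0 fell and 1, Lef1, rose on average, with a median log2 difference of -0.11. Their levels cover all cells of the tissue, and whether these genes report on the hair matrix alone was not tested. In the double mutants against Trp53 het mice 1 of the 12, Vdr, fell (log2 difference -0.93, adjusted p = 0.0471), and 9 of the 12 differences were below 0. Hoxc13 was at 22.1, 11.3 and 24.6 CPM in Llgl cKO Trp53 het mice, 25.6, 37.2 and 15.6 in Llgl cKO mice, 30.3, 31.8 and 26.2 in Trp53 het mice, and 32.5, 28.4 and 24.5 in controls. Krt35, a keratin of the early shaft, was at 29.9, 16.6 and 16.1 CPM in Llgl cKO Trp53 het mice, 63.2, 146 and 34.1 in Llgl cKO mice, 38.2, 54.8 and 77.5 in Trp53 het mice, and 55.1, 71.2 and 69.96 in controls. Neither was called (adjusted p = 0.433 for Hoxc13 and 0.391 for Krt35 on average). For Krt35 every double mutant library was below every library of the other groups, while the Llgl cKO libraries ran from 34.1 to 146 CPM. In control 3 Krt35 was at 70.0 CPM, level with the other controls, where the 50 Krtap genes were at 89.1 CPM against 1082 and 844. Krt84, a type II keratin, was opposite in sign to its class at 1.18, 2.903 and 1.17 CPM in Llgl cKO Trp53 het mice, 2.89, 0.364 and 0.264 in Llgl cKO mice, 0.185, 0.291 and 0.151 in Trp53 het mice, and 0.327, 0.425 and 0.161 in controls, and its average log2 difference of 2.52 was not called (SE 0.66, adjusted p = 0.0627).

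**Figure D4:**
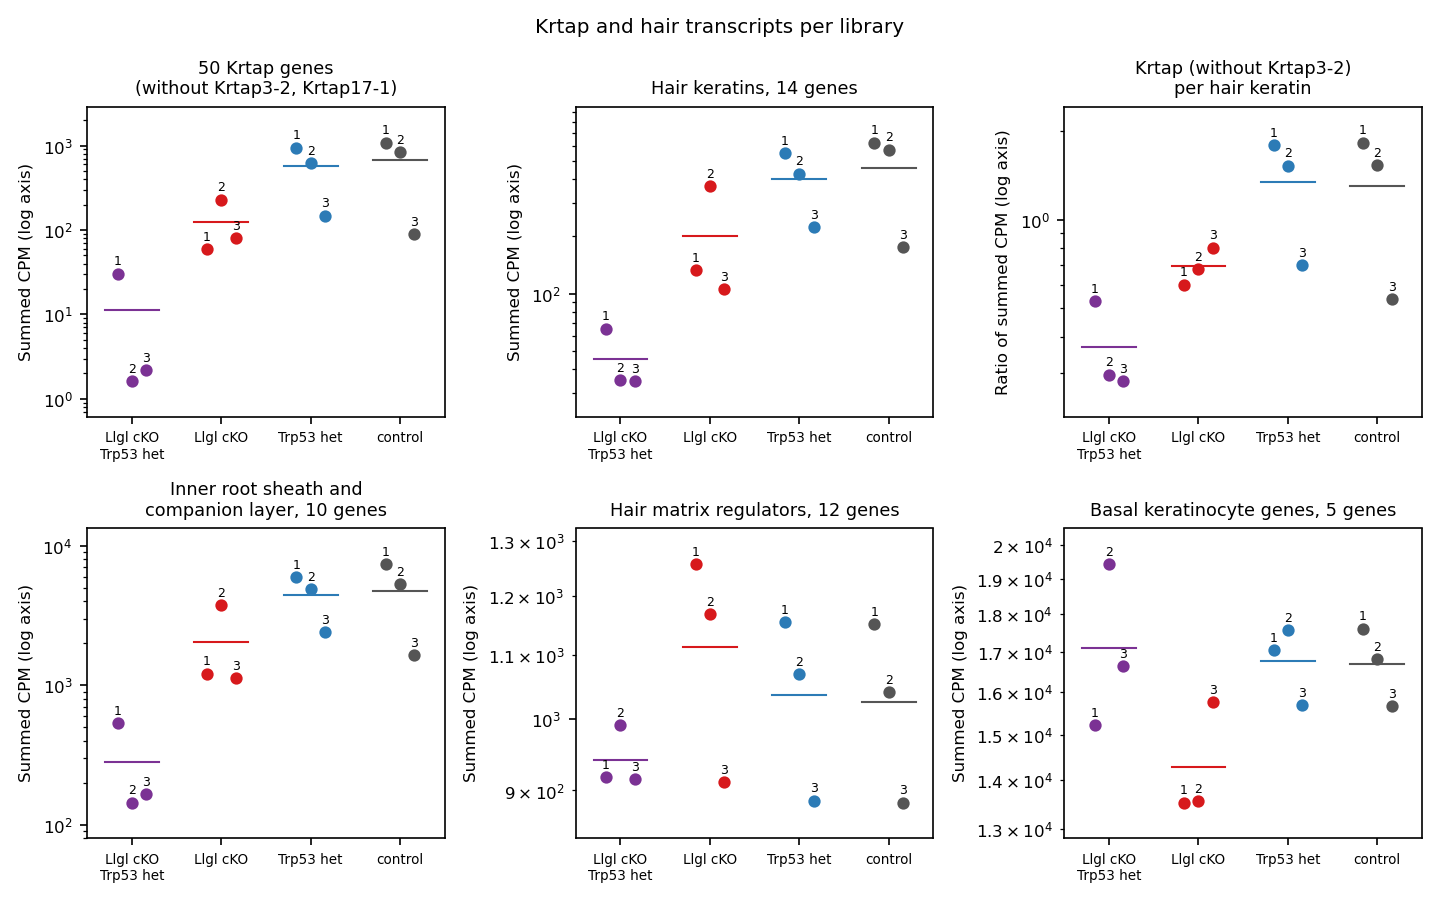
Summed CPM or ratio of summed CPM in each library (y axes, log scale) by genotype, with replicate numbers and group means as bars, for 50 Krtap genes, 14 hair keratins, the ratio of Krtap (without Krtap3-2) to hair keratin CPM, 10 inner root sheath and companion layer genes, 12 hair matrix regulators and 5 basal keratinocyte genes. The Krtap sums span 1.62 to 1082 CPM, and the matrix regulators 884 to 1257 CPM.

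Markers of other cell types also differed between libraries, and their part in the Krtap results was not tested. Adipocyte genes (2 of 5 tested, both lower on average, with Adipoq, Plin1 and Cfd at or near 0) summed to 0.335 to 0.769 CPM in Llgl cKO Trp53 het mice, 1.67 to 3.57 in Llgl cKO mice, 2.86 to 17.5 in Trp53 het mice and 2.02 to 29.1 in controls. Sebaceous genes fell on average in 5 of 7 and summed to 346 to 468 CPM in Llgl cKO Trp53 het mice, 545 to 738 in Llgl cKO mice, 768 to 951 in Trp53 het mice and 681 to 748 in controls. T cell genes fell in 2 of 7 and summed to 9.39 to 20.3 CPM in Llgl cKO Trp53 het mice, 6.25 to 14.5 in Llgl cKO mice, 12.9 to 51.1 in Trp53 het mice and 22.2 to 36.5 in controls.

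Fibroblast genes were called in 0 of 5 and summed to 172 to 239 CPM in Llgl cKO Trp53 het mice, 122 to 209 in Llgl cKO mice, 32.6 to 138 in Trp53 het mice and 27.8 to 143 in controls, where the third library was the highest of each of the last 2 groups. Suprabasal genes (4 of 5 in the table) fell in 1 of 4 (Ivl) and summed to 52788 to 103890 CPM over all libraries. Melanocyte genes were called in 0 of 5 and follicle stem cell genes rose in 1 of 6 (Lgr6). Mitochondrial transcripts, a sign of RNA quality, were called in 0 of 6 tested. The 8 listed summed to 11654 to 16893 CPM in Llgl cKO Trp53 het mice, 11159 to 13199 in Llgl cKO mice, 11926 to 13367 in Trp53 het mice and 8110 to 12932 in controls. All 6 were higher in the double mutants, with median log2 differences of 0.46 against controls, 0.29 against Trp53 het mice and 0.31 against Llgl cKO mice. Over the 14 lists 99 of 102 genes were in the table and 93 were tested.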

How the data were processed

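The deposited table holds raw counts per gene for 12 libraries of total RNA, prepared with the TruSeq Stranded mRNA kit per the labels' protocols. Per the submitters' processing notes, the genome build was GRCm38 and the authors' tools included featureCounts 1.6.4, STAR and DESeq2 2.11.40.8. The annotation and strand setting are not given in the sources used here.

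Counts were tested with edgeR 4.0.16 in R 4.3.3 (TMM scaling, filterByExpr with a minimum count of 10, robust quasi-likelihood F test on group means, 8 residual degrees of freedom), adjusted over 14582 genes, with calls below 0.05. The average Llgl comparison is the mean of the difference in each Trp53 genotype. DESeq2 1.42.0, other scalings and filters, a replicate block and libraries left out were alternatives. The procedure was tested on simulated data with the same spread for every gene and changes placed only in genes with many reads. That test does not cover genes with few reads or a wide spread, such as most Krtap genes. Positions and overlaps are from GENCODE vM21. Count ratios have 95% exact intervals, and floors are 3 counts over a group. Both cover counting error only.

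Members and lists were chosen with earlier results of these data known. Members named with values were the highest of each family and those with the smallest p, plus the neighbours of Krtap3-2. Same-numbered Trp53 het and control libraries deviated together (correlations 0.62, 0.21 and 0.82), and a block left 0 calls between them. Libraries of unlike number were not compared, so these correlations cannot show that the numbers pair libraries. The labels give no batch.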

Additional observations from a re-analysis of the deposited data

How the results depend on the processing

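Median-of-ratios scaling, upper-quartile scaling and a 1 CPM filter gave 36, 36 and 36 average Llgl calls, 11, 10 and 11 in Llgl cKO Trp53 het mice against controls, and 6, 5 and 6 against Trp53 het mice. DESeq2 gave 43 against controls, 45 against Trp53 het mice and 1 against Llgl cKO mice. With no low-count filter the counts were 0, 0 and, for the average, 1 (Krtap16-3), over 25889 genes tested. Fitting only the groups compared gave 0 against controls. The replicate numbers were not shown to pair libraries between any of the groups. With the replicate block 43 genes were called against controls, among them Krtap3-2 as higher, 41 against Trp53 het mice and 47 on average. The block gave 0 in Llgl cKO mice against controls, 0 against Llgl cKO mice and 0 for the interaction. Without both control 3 and the library labelled Trp53 het 3, counts were 29 in Llgl cKO mice against controls and 49 in each of the double mutants against controls, against Trp53 het mice and the average. That pair was chosen after its low Krtap levels were seen, so these counts are no independent support for a fall. Leaving out 1 library at a time gave 0 to 40 against controls, 0 to 35 against Trp53 het mice, 0 to 46 on average, and 0 in the other 4 comparisons. Over the members named as highest of a family or by smallest p, and the alternatives, leaving out 29 of them in Trp53 het mice against controls, 3100 log2 differences kept direction and side of the threshold, 315 lost and 246 gained the call, and 4 changed sign. These were Krtap3-2 in Llgl cKO mice against controls (0.36 without Llgl cKO 3, 0.066 without control 1 and 0.057 without control 2, range -0.75 to 0.36) and the Krtap27-1 interaction (0.12 without Llgl cKO 2, range -3.38 to 0.12). Of those 29 in Trp53 het mice against controls, 28 changed sign under an alternative, and 0 were called. The cause of these shifts was not tested. Few reads limit the precision of members at 0 to 3 counts in a group, whatever the library total.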
